A study of Mus musculus with 18 samples.

Results

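The genes described here are Angptl4 and 8 genes of the peroxisome proliferator-activated receptor (PPAR) pathway: the fatty acid genes Pdk4, Cpt1a, Plin2 and Acadvl, the receptors Ppara, Ppard and Pparg, and the receptor partner Rxra. They are 9 of the 21647 genes in the deposited table, taken from it by symbol, and all 9 had enough reads to be tested. Angptl4 was chosen by its rise under flow against static culture, where it ranked among the top genes in both genotypes, so those values are given as a description without a test. The other 8 were listed for their function, with earlier results of these data known. RNA was measured in cultured mouse cells labelled embryonic aortic endothelial cells, in 6 groups of 3 libraries. Tg737orpk/orpk cells (orpk below), which carry an insertion mutation in Ift88, a gene for a transport protein of the primary cilium, were kept static or sheared at 2 or 30 dyn/cm2 of laminar flow. Wild-type cells (WT) were kept static or sheared at the same 2 levels. All sheared groups had 48 h of flow, and all cells were grown on gelatin in low-serum medium with insulin, transferrin and selenium and starved of serum for 24 h before flow. The labels name no separate isolations or animals, so the p-values rest on differences among libraries of a group that may be technical only.

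PPARs are nuclear receptors that bind fatty acids and their derivatives, pair with a retinoid X receptor such as RXR alpha, and switch on genes for the uptake, storage and burning of fat. PPAR alpha is best known for driving fat burning in liver and heart, PPAR gamma for fat storage in adipocytes, and PPAR delta, which is made in most tissues, for fat burning in muscle and other cells. Their shared targets include Angptl4, a secreted inhibitor of lipoprotein lipase that is also known to be induced by low oxygen and by glucocorticoids, and Pdk4, a kinase that shuts pyruvate dehydrogenase and so favours fat over glucose as fuel. Cpt1a is the gate for the entry of long-chain fatty acids into mitochondria, Plin2 coats lipid droplets, and Acadvl carries out the first step of very-long-chain fatty acid oxidation.

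Each library held 13626480 to 17387553 counts. Ift88 was present in every library, at 6.37 to 8.46 CPM (counts scaled to the effective size of the library) in orpk cells and 12.8 to 17.4 CPM in WT cells. The labelled cell type was not borne out by its markers: 10 endothelial markers summed to 8.31 to 13.5 CPM in orpk libraries and 0.772 to 2.07 CPM in WT libraries, and Cdh5, Tie1 and Erg had no reads in any WT group. Cldn5 had no reads in any orpk group, where Vwf averaged highest of the 10. Pecam1 went the other way from the sums. It averaged 0.414, 0.145 and 0.254 CPM in orpk cells at static, 2 and 30 dyn/cm2, against 1.27, 0.713 and 0.584 CPM in WT cells. Adipocyte markers, which matter for Pparg and Plin2, summed to at most 7.63 CPM in orpk libraries and 1.12 CPM in WT libraries, with Cidec, Lep and Cfd at 0 reads in every orpk group. The orpk sums were mostly Fabp4. Epithelial and mesothelial markers summed to 157 to 301 CPM in orpk libraries and 352 to 571 CPM in WT libraries, and macrophage markers to 5.43 to 15.0 CPM in orpk libraries and 11.8 to 50.1 CPM in WT libraries. The first orpk sum was almost all Krt19 and Msln. In static culture Krt8, Krt18 and Epcam averaged 0.332, 0.162 and 0.0238 CPM in orpk cells against 149, 151 and 3.01 CPM in WT cells. Krt19 and Upk3b were also lower in static orpk cells, and Msln (198 against 94.6 CPM) and Wt1 (1.85 against 0.149 CPM) were higher. Cd68 averaged 8.72 against 2.65 CPM there, and Csf1r 5.09 against 44.3 CPM. The sums also differed between shear levels. At static, 2 and 30 dyn/cm2 fibroblast markers summed to 31382 to 32385, 20265 to 23635 and 26210.0 to 27856 CPM in orpk libraries, and to 981 to 1046, 710.1 to 734 and 1143 to 1150 CPM in WT libraries. These sums were mostly Col1a1 and Col1a2 in orpk cells and Col1a1 in WT cells. In orpk cells Pdgfra averaged 1775, 539 and 149 CPM at these levels, Dcn 547, 326 and 199 and Lum 44.0, 28.7 and 4.86. Pdgfra, Dcn and Lum each averaged at most 3.79 CPM in a WT group. Smooth muscle markers summed to 813 to 915, 1328 to 1566 and 2728 to 2931 CPM in orpk libraries, and to 49.7 to 53.1, 64.5 to 72.5 and 116 to 129 CPM in WT libraries at these levels. The smooth muscle sums were mostly Acta2 and Tagln in orpk cells and Tagln in WT cells. In WT cells Tagln averaged 46.4, 61.8 and 118 CPM at these levels, Acta2 0.788, 0.697 and 0.756 and Cnn1 1.52, 2.72 and 0.928. Des was also highest at 30 dyn/cm2 in WT cells, and Myh11 in static culture. In orpk cells Acta2, Tagln and Cnn1 were highest at 30 dyn/cm2. Des averaged 5.79, 6.91 and 4.21 CPM in orpk cells at these levels, and Myh11 0.54, 0.23 and 0.23 CPM. The epithelial and mesothelial sums were highest in static culture in both genotypes, and the macrophage sums lowest at 30 dyn/cm2. Single genes went other ways in WT cells. From static to 2 and 30 dyn/cm2 Krt8 averaged 149, 140 and 197 CPM, Krt18 151, 152 and 190 and Epcam 3.01, 8.04 and 11.3. Krt19 (162, 17.9 and 16.2 CPM), Msln, Upk3b and Wt1 were highest in static WT cells. Cd68 averaged 2.65, 2.88 and 3.22 CPM in WT cells at these levels, and Csf1r 44.3, 41.1 and 8.96 CPM. The part of these marker differences in the genotype and flow comparisons was not tested, and in these bulk libraries fewer cells of a type and less RNA per cell cannot be told apart. At 2 dyn/cm2, WT replicate 1 differed from its fellows by a chi-square of 6.35 and 7.74 per degree of freedom, against 1.44 between the other two, and orpk replicate 2 by 3.39 and 3.79, against 1.58.

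Angptl4 (ENSMUSG00000002289, GRCm38 chromosome 17, 33773750 to 33781830, minus strand) was almost silent in static cells and abundant under flow in both genotypes. In orpk cells the 3 libraries held 0.143, 0.258 and 0.439 CPM in static culture, 23.02, 19.6 and 23.4 CPM at 2 dyn/cm2 and 15.8, 14.1 and 15.5 CPM at 30 dyn/cm2. In WT cells they held 1.37, 1.75 and 1.72 CPM in static culture, 65.2, 58.6 and 57.8 CPM at 2 dyn/cm2 and 94.3, 103.7 and 95.7 CPM at 30 dyn/cm2. No sheared library overlapped a static one, and the 6 groups did not overlap one another, in the order WT at 30, WT at 2, orpk at 2, orpk at 30, WT static and orpk static. Against static culture Angptl4 was 76.9-fold higher at 2 dyn/cm2 and 53.0-fold higher at 30 dyn/cm2 in orpk cells, and 37.3-fold and 60.3-fold higher at these levels in WT cells. It stood in place 1, 6, 4 and 3 from the top of 13058 tested genes in those 4 comparisons. The orpk static level rests on 12 reads over the group, so the orpk folds are the least certain of these values.

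The step between the 2 shear levels, which did not enter the choice of Angptl4, had opposite signs in the genotypes. In orpk cells Angptl4 fell at 30 against 2 dyn/cm2 by 0.54 on the log2 scale (SE 0.09, adjusted p = 6.13e-07, edgeR quasi-likelihood test with Benjamini-Hochberg adjustment over all genes tested). In WT cells it rose, with a log2 fold change of 0.69 ± 0.05 (SE, adjusted p = 1.64e-14). The difference between these steps was itself past the threshold of 0.05, at -1.23 ± 0.10 (log2, orpk minus WT, adjusted p = 1.01e-13), and it stayed between -1.31 and -1.18 when any 1 of the 18 libraries was left out. Angptl4 was lower in orpk than in WT cells at every shear level, with log2 fold changes of -2.51 ± 0.38 in static culture, -1.46 ± 0.06 at 2 dyn/cm2 and -2.69 ± 0.07 at 30 dyn/cm2 (SE; the highest of the 3 adjusted p was 1.33e-07). The responses against static, which chose the gene, differed by 1.04 at 2 dyn/cm2 and by -0.19 at 30 dyn/cm2 (log2, orpk minus WT, given without a test), and with 1 library left out these differences were 0.75 to 1.48 and -0.48 to 0.25.

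**Figure D1:**
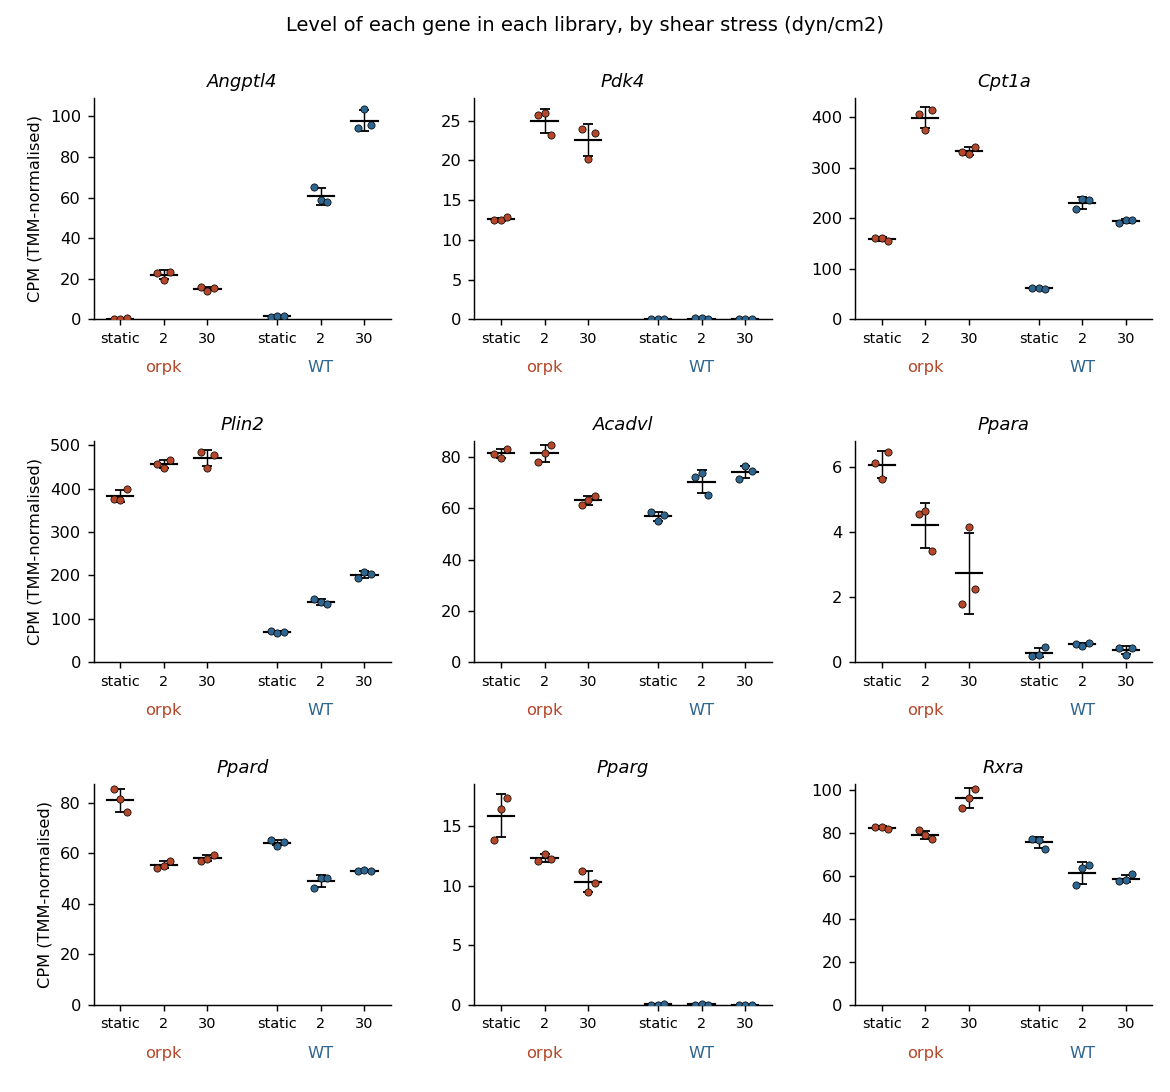
Level of each of the 9 genes in CPM (y axis, from 0) in each library (points) by shear stress in dyn/cm2, orpk left and WT right; lines are means of 3 libraries and bars are SD. Angptl4 is near 0 in static cells of both genotypes, Pdk4 and Pparg have at most 2 reads in any WT library, and Cpt1a is highest at 2 dyn/cm2 in both.

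Among the 5 tested genes whose levels followed Angptl4 most closely over the 18 libraries, out of 10628 genes with a mean of at least 5 CPM, were Sprtn, Bclaf3, Mlf1 and Kbtbd8. Their Pearson correlations on log2 CPM were 0.99, 0.98, 0.97 and 0.96. The 18 points share genotype and flow groups and library scaling, so these values describe likeness alone. When the mean of each genotype was subtracted, the closest gene was Acadl, the long-chain acyl-CoA dehydrogenase of mitochondrial fat oxidation, at 0.99. Of the other listed genes, Cpt1a had 0.53 over all libraries and 0.96 within genotype, Pdk4 -0.27 and 0.92, Plin2 0.01 and 0.80, Acadvl 0.06 and 0.26, Pparg -0.41 and -0.52, Rxra -0.54 and -0.44, and Ppard -0.95 and -0.94. Ppara was under the minimum of 5 CPM. Acadl itself held 74.5, 73.4 and 72.8 CPM in static orpk cells, 173, 164 and 175 CPM at 2 dyn/cm2 and 151, 149 and 155 CPM at 30 dyn/cm2. The WT libraries held 66.8, 71.8 and 72.4 CPM in static culture, 160.0, 149.9 and 153 CPM at 2 dyn/cm2 and 153, 158 and 155 CPM at 30 dyn/cm2.

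Cpt1a (ENSMUSG00000024900, chromosome 19, 3322334 to 3385733, plus strand) rose under flow in both genotypes and was highest at 2 dyn/cm2. In orpk cells it held 161, 162 and 155 CPM in static culture, 407, 376 and 415 CPM at 2 dyn/cm2 and 332, 327 and 341 CPM at 30 dyn/cm2. WT cells held 62.1, 62.3 and 59.3 CPM in static culture, 218, 237 and 236 CPM at 2 dyn/cm2 and 191, 197 and 196 CPM at 30 dyn/cm2. The 3 levels did not overlap in either genotype. Against static, the log2 fold change was 1.33 ± 0.04 at 2 dyn/cm2 and 1.07 ± 0.04 at 30 dyn/cm2 in orpk cells, and 1.91 ± 0.04 and 1.67 ± 0.04 at these levels in WT cells. The step from 2 to 30 dyn/cm2 was a fall in both, -0.26 ± 0.04 in orpk cells (adjusted p = 9.69e-08) and -0.24 ± 0.04 in WT cells (adjusted p = 2.12e-06), and the difference between these steps, -0.01 ± 0.05, missed the threshold (adjusted p = 0.863). The response against static was smaller in orpk than in WT cells, with differences of -0.59 ± 0.06 at 2 dyn/cm2 (log2, adjusted p = 2.82e-11) and -0.60 ± 0.06 at 30 dyn/cm2 (adjusted p = 1.19e-11).

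Plin2 (ENSMUSG00000028494, chromosome 4, minus strand), the droplet coat gene, rose under flow in both genotypes. In orpk cells it held 377, 375 and 399 CPM in static culture, 456, 448 and 466 CPM at 2 dyn/cm2 and 485, 449 and 477 CPM at 30 dyn/cm2. In WT cells it held 71.5, 67.5 and 69.9 CPM in static culture, 145, 138 and 133 CPM at 2 dyn/cm2 and 194, 209 and 202 CPM at 30 dyn/cm2. Sheared libraries overlapped static ones in neither genotype, and the 2 shear levels overlapped in orpk cells alone. The log2 fold changes against static were 0.25 ± 0.04 at 2 dyn/cm2 and 0.29 ± 0.04 at 30 dyn/cm2 in orpk cells, and 0.99 ± 0.04 and 1.53 ± 0.04 at these levels in WT cells. From 2 to 30 dyn/cm2 Plin2 rose again in WT cells (0.54 ± 0.04, adjusted p = 9.34e-15), while in orpk cells the step was 0.04 ± 0.04 (adjusted p = 0.309), and the difference between the steps was -0.50 ± 0.05 (adjusted p = 3.40e-10).

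Acadvl (ENSMUSG00000018574, chromosome 11) went opposite ways in the genotypes at 30 dyn/cm2. Its level in orpk cells was 81.3, 79.7 and 83.3 CPM in static culture, 78.0, 81.6 and 84.8 CPM at 2 dyn/cm2 and 61.4, 63.2 and 64.9 CPM at 30 dyn/cm2. In WT cells it was 58.5, 54.9 and 57.4 CPM in static culture, 72.1, 73.7 and 65.4 CPM at 2 dyn/cm2 and 71.5, 76.4 and 74.8 CPM at 30 dyn/cm2. The orpk libraries at 30 dyn/cm2 lay below all other orpk libraries, and the sheared WT libraries all lay above the static ones. At 30 dyn/cm2 against static it fell in orpk cells (-0.37 ± 0.05, adjusted p = 1.30e-08) and rose in WT cells (0.38 ± 0.05, adjusted p = 3.80e-09), a difference of -0.75 ± 0.07 (adjusted p = 1.89e-12). At 2 dyn/cm2 against static the log2 fold change was 0.002 in orpk cells, which missed the threshold, and 0.30 in WT cells. Acadvl shares 1151 exon bases with Dvl2 on the other strand, and whether strand was used in counting is not given in the sources used here, so its level is uncertain. Dvl2, a Wnt signalling gene, fell in both genotypes at 30 dyn/cm2 against static, by 0.28 in orpk cells and by 0.52 in WT cells on the log2 scale.

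Pdk4 (ENSMUSG00000019577, chromosome 6, minus strand) was expressed in orpk cells and barely detected in WT cells. The orpk libraries held 12.5, 12.5 and 12.8 CPM in static culture, 25.7, 26.0 and 23.1 CPM at 2 dyn/cm2 and 24.0, 20.2 and 23.4 CPM at 30 dyn/cm2. The WT groups had 0 reads in static culture, 5 at 2 dyn/cm2 and 3 at 30 dyn/cm2 over their 3 libraries, so no change under flow can be read in them. In orpk cells Pdk4 rose against static by 0.98 ± 0.08 at 2 dyn/cm2 (adjusted p = 1.38e-13) and by 0.84 ± 0.08 at 30 dyn/cm2 (adjusted p = 2.15e-11) on the log2 scale, with no overlap with static libraries. The step from 2 to 30 dyn/cm2 was -0.15 ± 0.07 (adjusted p = 0.0782).

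**Figure D2:**
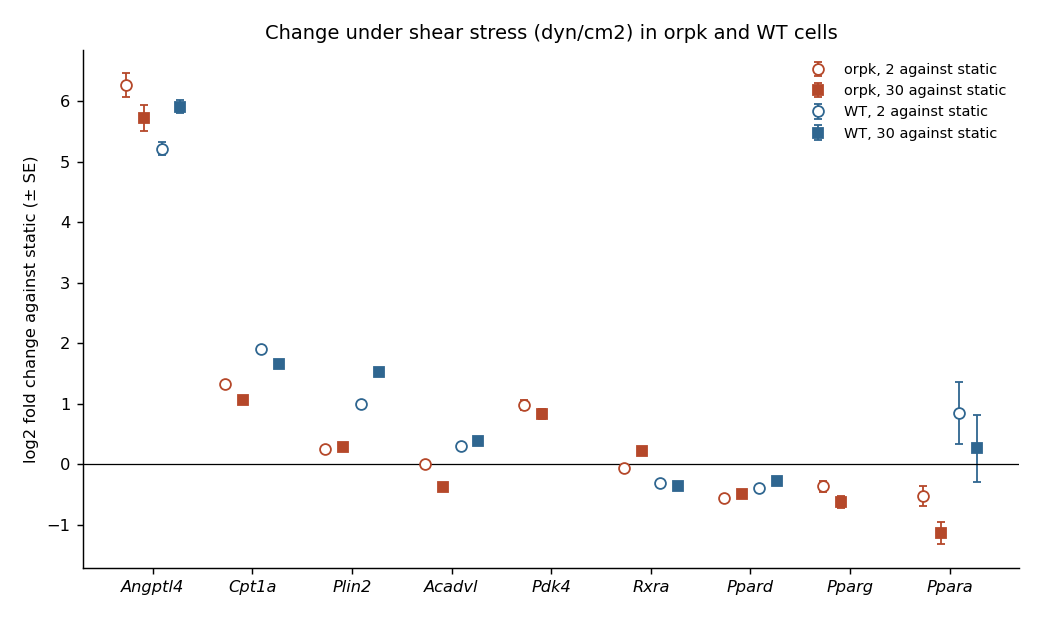
Log2 fold change against static culture (y axis, ± SE) at 2 dyn/cm2 (open circles) and 30 dyn/cm2 (filled squares) in orpk and WT cells; Pdk4 and Pparg in WT cells are left out because of their low reads. Angptl4 lies between 5.22 and 6.26 in all 4 comparisons and was chosen for these values, and Acadvl and Rxra have opposite signs in the genotypes at 30 dyn/cm2.

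Cpt1a, Plin2 and, in orpk cells, Pdk4 rose together under flow, so the RefSeq promoter windows of these 3 genes are shown (GRCm38.p6, 250 bases before to 50 bases after the start, 5′ to 3′ on the gene's strand). They are chr4:86670010-86670309 (minus strand) for Plin2, chr6:5496229-5496528 (minus strand) for Pdk4 and chr19:3323051-3323350 (plus strand) for Cpt1a. Capitals mark matches, on either strand, to the PPAR element called DR1, a direct repeat of AGGTCA with 1 free base between the copies, with up to 2 changes in its 12 fixed letters, or to a single copy of AGGTCA, which also lies within that element.
Plin2: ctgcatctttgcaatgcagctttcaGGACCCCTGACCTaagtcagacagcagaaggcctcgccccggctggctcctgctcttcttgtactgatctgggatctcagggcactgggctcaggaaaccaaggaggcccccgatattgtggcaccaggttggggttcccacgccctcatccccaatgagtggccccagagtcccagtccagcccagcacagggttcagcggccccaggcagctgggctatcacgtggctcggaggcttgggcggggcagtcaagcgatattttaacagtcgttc
Pdk4: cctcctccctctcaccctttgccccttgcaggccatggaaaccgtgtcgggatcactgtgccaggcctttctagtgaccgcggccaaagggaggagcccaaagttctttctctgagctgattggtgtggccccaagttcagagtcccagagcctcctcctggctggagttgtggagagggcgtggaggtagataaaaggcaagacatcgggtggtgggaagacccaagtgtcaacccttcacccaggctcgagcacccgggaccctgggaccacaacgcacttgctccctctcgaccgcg
Cpt1a: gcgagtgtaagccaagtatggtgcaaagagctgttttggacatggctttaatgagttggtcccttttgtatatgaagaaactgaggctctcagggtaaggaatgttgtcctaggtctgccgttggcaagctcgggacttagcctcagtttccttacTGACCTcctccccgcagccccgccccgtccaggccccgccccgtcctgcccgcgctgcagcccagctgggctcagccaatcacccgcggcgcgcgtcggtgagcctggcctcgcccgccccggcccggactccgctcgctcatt
The Plin2 window held a DR1 match with 2 changes, AGGTCAGGGGTCC on the other strand, 225 to 213 bases before the start. Cpt1a held a single copy of AGGTCA 94 to 89 bases before the start on the other strand, and Pdk4 held no match of either kind. RefSeq windows were matched for 8 of the 9 genes, 11 windows in all, and Angptl4 was the gene without a window. None held the exact element, which was in 13 of 32851 windows of all genes. The match with up to 2 changes was in 2 of the 11, one of Plin2 and one of Rxra, against 3.86% of all windows. AGGTCA was in a window of 5 of the 8 genes (Plin2, Cpt1a, Acadvl, Pparg and Rxra), against 18.1% of all genes with a window. ACGTG, the core of the element bound by the low-oxygen factor HIF, was in 3 of the 11 windows (Plin2, Acadvl and Ppard), against 19.6% of all windows. These are matches of letters and not measured binding.

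Among the receptors, Ppard fell under flow in both genotypes, and Pparg and Ppara fell in orpk cells. Ppard held 85.5, 81.4 and 76.4 CPM in static orpk cells, 54.2, 55.1 and 57.1 CPM at 2 dyn/cm2 and 56.9, 57.9 and 59.3 CPM at 30 dyn/cm2. In WT cells it held 65.2, 63.0 and 64.7 CPM in static culture, 46.2, 50.3 and 50.3 CPM at 2 dyn/cm2 and 53.0, 53.4 and 52.9 CPM at 30 dyn/cm2. No sheared library reached a static one of its genotype. Against static the log2 fold changes were -0.55 ± 0.05 at 2 dyn/cm2 (adjusted p = 1.98e-13) and -0.48 ± 0.05 at 30 dyn/cm2 (adjusted p = 6.47e-12) in orpk cells, and -0.40 ± 0.05 (adjusted p = 2.11e-09) and -0.28 ± 0.05 (adjusted p = 2.35e-06) at these levels in WT cells.

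Pparg was detected in orpk cells and had at most 1 read in a WT group. Its level in orpk cells was 13.8, 16.4 and 17.3 CPM in static culture, 12.1, 12.7 and 12.2 CPM at 2 dyn/cm2 and 11.2, 9.50 and 10.2 CPM at 30 dyn/cm2, while the WT groups had 1 read in static culture, 1 at 2 dyn/cm2 and 0 at 30 dyn/cm2. The 3 orpk groups did not overlap. In orpk cells it fell against static by 0.36 at 2 dyn/cm2 (SE 0.10, adjusted p = 0.00117) and by 0.62 at 30 dyn/cm2 (SE 0.10, adjusted p = 1.23e-06) on the log2 scale. Adipocyte markers in orpk libraries summed to 5.64 to 7.63 CPM in static culture, 0.661 to 0.928 CPM at 2 dyn/cm2 and 0.0714 to 0.155 CPM at 30 dyn/cm2. These sums were mostly 1 gene, Fabp4, which averaged 6.18, 0.789 and 0.0766 CPM at these levels. Each other adipocyte marker averaged at most 0.137 CPM in an orpk group. The part of these markers in the level of Pparg was not tested. The step of Pparg between 2 and 30 dyn/cm2, -0.26 ± 0.11 (adjusted p = 0.0314), missed the threshold in DESeq2 (adjusted p = 0.0652) and without either of orpk replicates 2 and 3 at 2 or 30 dyn/cm2. Ppara held 6.13, 5.62 and 6.44 CPM in static orpk cells, 4.56, 4.63 and 3.40 CPM at 2 dyn/cm2 and 1.798, 4.14 and 2.25 CPM at 30 dyn/cm2, where replicate 2 stood well above the others. It fell against static by 0.53 at 2 dyn/cm2 (SE 0.16, adjusted p = 0.0052) and by 1.13 at 30 dyn/cm2 (SE 0.19, adjusted p = 1.11e-06), and the first call was lost without orpk replicate 3 at 2 dyn/cm2 (-0.39, adjusted p = 0.0558). From 2 to 30 dyn/cm2 it fell by 0.61 (SE 0.20, adjusted p = 0.00764), although the libraries overlapped, and this call was lost without orpk replicate 1 (-0.38, adjusted p = 0.112) or 3 (adjusted p = 0.0552) at 30 dyn/cm2. In WT cells Ppara had 14 to 29 reads in a group, and its log2 fold changes of 0.85 ± 0.51 and 0.27 ± 0.56 at 2 and 30 dyn/cm2 missed the threshold (adjusted p = 0.145 and 0.7).

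Rxra, the partner of all 3 PPARs, moved in opposite directions in the genotypes at 30 dyn/cm2. It held 82.7, 83.0 and 82.0 CPM in static orpk cells, 81.2, 79.0 and 77.2 CPM at 2 dyn/cm2 and 91.6, 96.5 and 100.7 CPM at 30 dyn/cm2. The WT libraries held 77.2, 77.0 and 72.8 CPM in static culture, 55.7, 63.6 and 65.1 CPM at 2 dyn/cm2 and 57.6, 58.0 and 60.7 CPM at 30 dyn/cm2. The orpk libraries at 30 dyn/cm2 lay above all other orpk libraries, and the sheared WT libraries all lay below the static ones. At 30 dyn/cm2 against static it rose in orpk cells (0.22 ± 0.05, adjusted p = 8.81e-05) and fell in WT cells (-0.36 ± 0.05, adjusted p = 2.35e-08), a difference of 0.58 ± 0.07 (adjusted p = 1.40e-09). At 2 dyn/cm2 it fell in WT cells (-0.30 ± 0.05, adjusted p = 1.23e-06) and was -0.06 ± 0.05 in orpk cells (adjusted p = 0.272). The other retinoid receptors were Rxrb, at 76.1 to 102 CPM in orpk libraries and 63.3 to 69.5 CPM in WT libraries, and Rxrg, which had 1 read in all.

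Per kilobase of exons, the receptor transcripts had different makeups in the genotypes. In static orpk cells Ppard averaged 10.8 CPM per kb, Pparg 5.37 and Ppara 1.58, or 60.8%, 30.3% and 8.91% of their sum. In static WT cells these were 8.55, 0.00649 and 0.0752 CPM per kb, so that Ppard made up 99.1% of the sum. At 30 dyn/cm2 Ppard made up 64.7% of the sum in orpk cells and 98.7% in WT cells. Rxra stood at 14.5 to 17.6 CPM per kb in the orpk groups and 10.8 to 13.9 in the WT groups, above each PPAR in every group on this scale. These levels depend on the length used. With the length of the longest transcript, Ppard averaged 21.8 CPM per kb in static orpk cells, Pparg 7.47 and Ppara 1.78, or 70.2%, 24.1% and 5.73% of their sum, and Ppard made up 99.5% of the sum in static WT cells. On that scale Ppard lay above Rxra in static orpk cells (21.8 against 16.8 CPM per kb) and in all 3 WT groups (17.3 against 15.4 in static culture, 13.1 against 12.5 at 2 dyn/cm2 and 14.3 against 11.98 at 30 dyn/cm2).

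**Figure D3:**
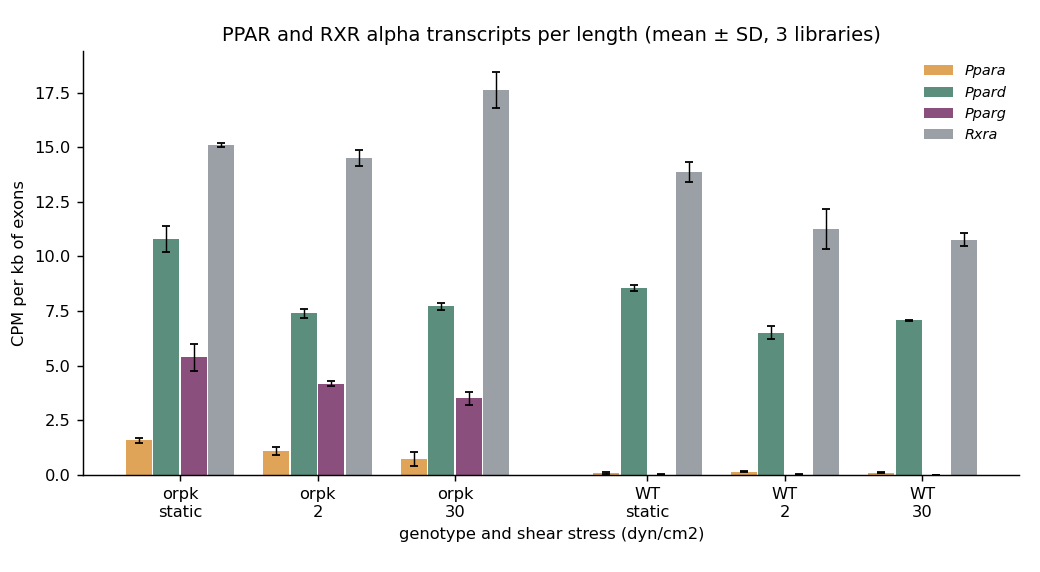
Mean level per kb of exons (CPM per kb, y axis from 0; bars are means and error bars SD of 3 libraries) of Ppara, Ppard, Pparg and Rxra by genotype and shear stress. All 3 PPARs are visible in orpk cells, and Ppard is nearly the sole PPAR in WT cells, at 8.55 CPM per kb in static culture.

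Between genotypes, the fatty acid genes and Ppara were higher in orpk cells in all 3 comparisons, except Acadvl at 30 dyn/cm2. Plin2 had log2 fold changes of orpk against WT of 2.46 ± 0.04 in static culture, 1.72 ± 0.04 at 2 dyn/cm2 and 1.22 ± 0.04 at 30 dyn/cm2, so the gap was smaller at each higher shear level. Cpt1a had 1.38 ± 0.04, 0.79 ± 0.04 and 0.78 ± 0.04 at these levels, and Ppara 4.31 ± 0.30, 2.93 ± 0.27 and 2.91 ± 0.34. Pdk4 was at least 197-fold higher in orpk cells in static culture, with 544 reads over the 3 orpk libraries against 0 in WT libraries and a floor of 3 reads. At 2 dyn/cm2 it had 1194 reads in orpk libraries against 5 in WT libraries (7.94 ± 0.20 on the log2 scale), and at 30 dyn/cm2 905 against 3, a ratio of 396 with a 95% exact counting interval of 135 to 1924. Pparg had 685 reads in static orpk libraries against 1 in WT libraries, a ratio of 746 with an interval of 133 to 29509, and was at least 182-fold higher in orpk cells at 30 dyn/cm2. Smaller gaps depend on the scaling, because scaling by library totals shifts the median gene by -0.22 in static culture, -0.22 at 2 dyn/cm2 and -0.31 at 30 dyn/cm2 (log2, orpk against WT). Ppard was 0.34 ± 0.05, 0.18 ± 0.05 and 0.13 ± 0.05 higher in orpk cells at static, 2 and 30 dyn/cm2, with the last 2 turning to -0.040 and -0.19 under library totals. Rxra was 0.13 ± 0.05, 0.37 ± 0.05 and 0.71 ± 0.05 higher at these levels, with the first turning to -0.088. Acadvl was 0.51 ± 0.05 higher in static culture, 0.21 ± 0.05 higher at 2 dyn/cm2, turning to -0.0097 under library totals, and 0.23 ± 0.05 lower at 30 dyn/cm2 (-0.23).

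Counts of calls among these genes are given beside the shares over all genes tested. Some differ from those shares, such as 8 of 8 at 30 dyn/cm2 against static in orpk cells. With so few genes, nothing particular to them is read from the counts. Against static at 2 dyn/cm2 in orpk cells, 6 of the 8 genes other than Angptl4 passed, where 62% of all tested genes did, with 3 higher (30.9% of all) and 3 lower (31.1%). At 30 dyn/cm2 in orpk cells 8 of 8 passed, where 69.9% of all did, with 4 higher (36.5%) and 4 lower (33.3%). In WT cells 6 of 8 passed at 2 dyn/cm2, where 62.9% of all did, with 4 higher (32.6%), Pdk4 and its 5 reads among them, and 2 lower (30.3%). At 30 dyn/cm2 in WT cells 5 of 8 passed, where 66.9% of all did, with 3 higher (34.1%) and 2 lower (32.7%). At 30 against 2 dyn/cm2, 6 of 9 passed in orpk cells (63.6% of all), with 1 higher (32.1%) and 5 lower (31.5%), and 3 of 9 in WT cells (33.1%), with 2 higher (15.9%) and 1 lower (17.2%).

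All 9 passed between genotypes. In static culture, where 87.8% of all tested genes passed, 8 were higher in orpk cells (44.4%) and 1 lower (43.4%). At 2 dyn/cm2, where 87.5% passed, 8 were higher (44.6%) and 1 lower (42.9%), and at 30 dyn/cm2, where 86.9% passed, 7 were higher (44.9%) and 2 lower (42%). The response to flow differed between genotypes for 5 of the 8 genes other than Angptl4 at 2 dyn/cm2 against static, where 52.6% of all did (27.1% with a positive difference, 25.4% with a negative one). It differed for 6 of these 8 at 30 dyn/cm2 against static, where 57.5% of all did (30.6% positive, 26.9% negative), and for 4 of all 9 at 30 against 2 dyn/cm2, where 46.5% did (25% positive, 21.5% negative).

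Of 129 other genes of the pathway, 110 were tested, and most genes of mitochondrial beta-oxidation rose at 2 dyn/cm2. Against static, 18 of its 23 genes rose and 1 fell in orpk cells, where 30.9% of all tested genes rose and 31.1% fell (median log2 fold change 0.34, against 0.00 over all genes tested). In WT cells 18 rose and 3 fell, where 32.6% of all rose and 30.3% fell (median 0.37, against 0.01). At 30 against 2 dyn/cm2, 17 fell and 1 rose in orpk cells (median -0.36), where 31.5% of all fell and 32.1% rose, and 14 fell and 0 rose in WT cells (median -0.18), where 17.2% of all fell and 15.9% rose. Summed over the 23 genes, libraries held 1128 to 1135 CPM in static culture, 1466 to 1516 CPM at 2 dyn/cm2 and 1122 to 1147 CPM at 30 dyn/cm2 in orpk cells, and 1054 to 1056, 1368 to 1477 and 1243 to 1246 CPM at these levels in WT cells. Without WT replicate 1 at 2 dyn/cm2, which stands apart, 17 of the 23 passed in WT cells at 2 dyn/cm2 in place of 21. Acadl rose by 1.21 ± 0.04 and 1.04 ± 0.04 at 2 and 30 dyn/cm2 in orpk cells and by 1.13 ± 0.04 and 1.14 ± 0.04 in WT cells (log2). Slc25a20, which carries acylcarnitines into mitochondria downstream of Cpt1a, rose by 0.56 ± 0.07 and 0.60 ± 0.08 in orpk cells and by 1.44 ± 0.06 and 1.32 ± 0.06 in WT cells. Of 17 tested genes of peroxisomal oxidation, 5 rose and 3 fell at 2 dyn/cm2 against static in orpk cells (30.9% and 31.1% of all), and 8 rose and 3 fell in WT cells (32.6% and 30.3% of all).

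**Figure D4:**
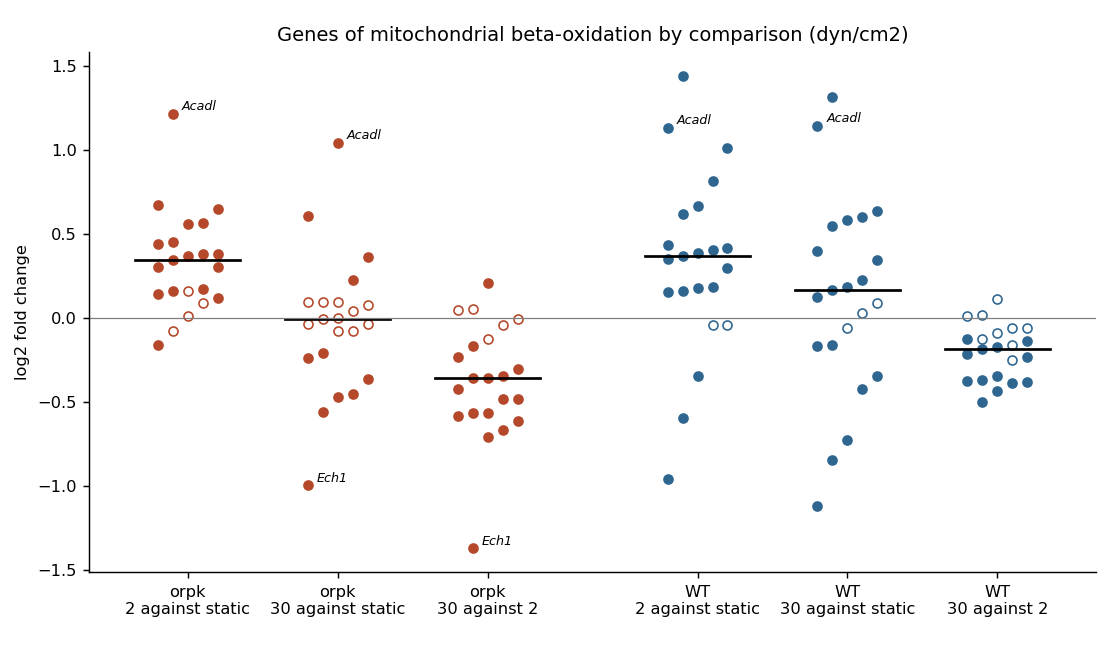
Log2 fold change (y axis) of listed genes of mitochondrial beta-oxidation in 3 shear comparisons per genotype, orpk left and WT right; filled points passed the threshold, open points did not, and lines are medians over all 23 genes of the list, of which 1 is not drawn. Medians are 0.34 and 0.37 at 2 dyn/cm2 against static and lie below 0 at 30 against 2 dyn/cm2.

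Of 12 tested genes of pyruvate dehydrogenase control, 6 rose and 4 fell at 30 dyn/cm2 against static in orpk cells (36.5% and 33.3% of all) and 2 rose and 8 fell in WT cells (34.1% and 32.7% of all), with the 3 other kinase genes among those that fell. Pdk1, the kinase induced by low oxygen, held 210.4, 214 and 236 CPM in static orpk cells, 63.3, 71.0 and 62.8 CPM at 2 dyn/cm2 and 13.7, 14.004 and 13.6 CPM at 30 dyn/cm2. WT cells held Pdk1 at 342, 347 and 326 CPM in static culture, 30.4, 32.6 and 31.6 CPM at 2 dyn/cm2 and 20.9, 21.2 and 18.7 CPM at 30 dyn/cm2. No groups overlapped within a genotype. The log2 fold changes against static were -1.74 ± 0.05 and -4.00 ± 0.06 at 2 and 30 dyn/cm2 in orpk cells and -3.42 ± 0.05 and -4.06 ± 0.05 in WT cells. Pdk3 fell in the same 4 comparisons, by 0.27, 1.02, 0.57 and 0.69 on the log2 scale, and Pdk2 fell in 3 of them, with -0.04 ± 0.09 at 2 dyn/cm2 in WT cells.

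**Figure D5:**
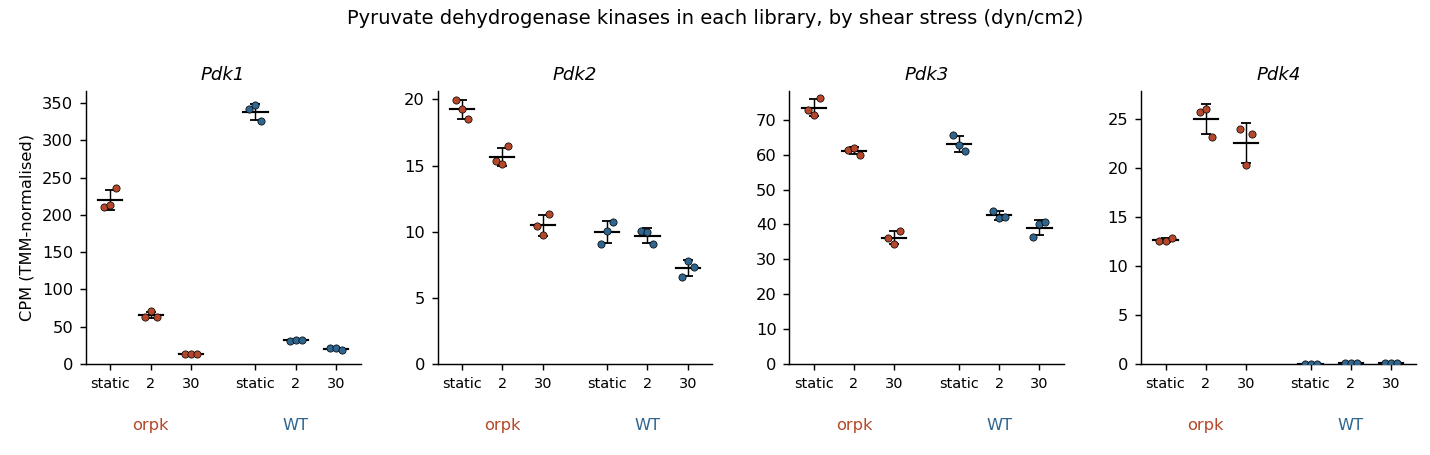
Level in CPM (y axis, from 0) of the 4 pyruvate dehydrogenase kinase genes in each library (points) by shear stress in dyn/cm2, orpk left and WT right; lines are means and bars SD of 3 libraries. Pdk1 is highest in static cells of both genotypes, and Pdk4 is higher under flow in orpk cells and has at most 5 reads in a WT group.

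Of 14 tested genes of fatty acid uptake and binding, 5 rose and 7 fell at 30 dyn/cm2 against static in orpk cells, where 36.5% of all tested genes rose and 33.3% fell. In WT cells 0 rose and 8 fell, where 34.1% of all rose and 32.7% fell. Lpl, the lipase that the Angptl4 protein inhibits, held 79.5, 80.2 and 85.5 CPM in static orpk cells, 119.8, 115 and 107 CPM at 2 dyn/cm2 and 46.4, 38.4 and 40.8 CPM at 30 dyn/cm2. WT groups had 6, 7 and 6 reads of Lpl, and the orpk excess was 9.24 ± 0.17, 9.68 ± 0.15 and 8.43 ± 0.20 on the log2 scale in static culture, at 2 and at 30 dyn/cm2. Vldlr, a receptor for triglyceride-rich lipoproteins, fell under flow in both genotypes, by 0.70 ± 0.06 and 0.34 ± 0.06 in orpk cells and by 3.46 ± 0.06 and 4.17 ± 0.06 in WT cells on the log2 scale. Of 12 tested droplet genes, Hilpda, an inhibitor of the lipase ATGL that low oxygen induces, fell in orpk cells (-2.75 ± 0.05 and -2.48 ± 0.05 at 2 and 30 dyn/cm2) and in WT cells (-0.89 ± 0.07 and -0.87 ± 0.07). Plin1, Plin5, Cidea, Cidec, G0s2 and Fitm1 of that list were below the filter on reads.

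Of 10 tested further PPAR targets, 4 rose and 1 fell at each shear level against static in orpk cells, where 30.9% of all rose and 31.1% fell at 2 dyn/cm2, and 36.5% rose and 33.3% fell at 30 dyn/cm2. In WT cells 7 rose and 1 fell at 2 dyn/cm2 (32.6% and 30.3% of all), and 8 rose and 0 fell at 30 dyn/cm2 (34.1% and 32.7% of all). Some of these rises rest on few reads over a WT group. At static, 2 and 30 dyn/cm2 Vnn1 had 4, 62 and 52 reads, Creb3l3 2, 16 and 14, and Nr1h3 7, 29 and 23. Creb3l3 and Nr1h3 at 30 dyn/cm2 overlapped static libraries. Acot2, a mitochondrial acyl-CoA thioesterase, rose by 0.96 ± 0.14 and 0.70 ± 0.15 in orpk cells and by 2.22 ± 0.08 and 1.15 ± 0.09 in WT cells at 2 and 30 dyn/cm2 against static (log2). Acot1 is its cytosolic relative of very similar sequence, so the division of reads between these genes is uncertain. It held 7.90, 8.82 and 9.20 CPM in static WT cells and 24.4, 24.5 and 24.4 CPM at 2 dyn/cm2, and had 1 read in each orpk group. Fgf21, a secreted hormone of fasting, rose at 30 against 2 dyn/cm2 in both genotypes, by 2.31 ± 0.27 in orpk cells and 1.69 ± 0.10 in WT cells (log2). The orpk step rests on 139 against 33 reads. Against static, Fgf21 was -0.01 ± 0.40 and 2.30 ± 0.28 at 2 and 30 dyn/cm2 in orpk cells, the first missing the threshold. In WT cells it fell at 2 dyn/cm2 (-0.60 ± 0.11) and rose at 30 dyn/cm2 (1.09 ± 0.09). Of 17 tested receptor partners and coregulators, 5 rose and 6 fell at 2 dyn/cm2 against static in orpk cells (30.9% and 31.1% of all), and 2 rose and 12 fell in WT cells (32.6% and 30.3% of all). Without orpk replicate 2 at 2 dyn/cm2, which stands apart, 7 of the 17 passed in orpk cells in place of 11. Ppargc1a (PGC-1 alpha), a coactivator of the PPARs, fell at 30 dyn/cm2 against static in both, by 3.38 ± 0.10 in orpk cells and by 1.94 ± 0.15 in WT cells. Lpin1, a phosphatidate phosphatase that also acts as a PPAR coactivator, fell by 0.66 ± 0.06 and 0.56 ± 0.06 at 2 and 30 dyn/cm2 in orpk cells and by 2.29 ± 0.05 and 2.48 ± 0.05 in WT cells, all on the log2 scale. Of the 5 other angiopoietin-like genes tested, 0 rose and 4 fell at 2 dyn/cm2 against static in orpk cells (30.9% and 31.1% of all), and 1 rose and 2 fell in WT cells (32.6% and 30.3% of all). Angptl2 fell at 2 dyn/cm2, by 0.33 ± 0.04 in orpk cells and by 0.30 ± 0.05 in WT cells, and was 0.17 ± 0.04 and 0.27 ± 0.05 higher at 30 dyn/cm2.

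Known inducers of Angptl4 other than PPARs were read through marker genes. All 10 tested markers of the low-oxygen response fell in the 4 comparisons with static, in which 31.1% and 33.3% of all tested genes fell at 2 and 30 dyn/cm2 in orpk cells and 30.3% and 32.7% in WT cells. They had medians of -1.84 and -1.94 at 2 and 30 dyn/cm2 in orpk cells and -2.90 and -2.94 in WT cells. Their sum was 980.4 to 1187 CPM in sheared and 3499 to 3571 CPM in static orpk libraries, and 578 to 682 CPM in sheared and 2897 to 3104 CPM in static WT libraries. Of 6 tested glucocorticoid targets, 2 rose and 3 fell at 2 dyn/cm2 (30.9% and 31.1% of all) and 4 rose and 2 fell at 30 dyn/cm2 (36.5% and 33.3% of all) against static in orpk cells. In WT cells 1 rose and 5 fell at 2 dyn/cm2 (32.6% and 30.3% of all), and 1 rose and 3 fell at 30 dyn/cm2 (34.1% and 32.7% of all). The part of either response in the level of Angptl4 was not tested.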

How the data were processed

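RNA was measured by stranded mRNA sequencing with single 50-base reads in 18 libraries, 3 in each of 6 groups. Per the submitters' processing notes, CASAVA 1.8.2, STAR 2.4 and featureCounts 1.4.6 were used with GRCm38, and the deposited values are whole-number read counts per gene that the authors did not normalize. Whether strand was used in counting is not given in the sources used here. The table holds 21647 genes, 21583 with a symbol, and 3937 without reads in any library.

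Counts were tested with edgeR 4.0.16 (R 4.3.3, limma 3.58.1) by its quasi-likelihood test with TMM factors and 1 mean per group, on 13058 genes kept by filterByExpr. A gene was called at a Benjamini-Hochberg adjusted p below 0.05 over all of these, and all p-values and SEs are from this fit with 12 residual degrees of freedom. The common biological coefficient of variation was 3.28%. Library totals set the precision, and counting intervals at 95% and the floor of 3 reads over a group cover counting error only. Levels per kb use the union of exons. The fit was also run on data simulated from its own model with few genes changed. Those data do not match these, in which most tested genes passed in most comparisons. Figures were drawn with matplotlib 3.10.9.

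The 9 genes and the lists were chosen with earlier results of these data known. The text names these 9, Ift88, genes among the 5 most like Angptl4 and, of each list, genes among the 4 with the largest changes past the threshold in a comparison, with their values in other comparisons beside them. Rxrb, Rxrg and Dvl2 were named after their values were seen. Some genes that this rule names are not reported here. Leaving aside genes that overlap one of the 9 by position, 50-base stretches shared with another gene made up at most 2.57% of a gene's stretches (Plin2). Dvl2, left aside there, shares 1151 of the 2686 exon bases of Acadvl. The alternatives were RLE factors, library totals, no filter, DESeq2 1.42.0, a fit limited to the groups of a comparison, leaving out 1 library at a time, the replicate number as a block, the longest transcript as length, and 2 other measures of likeness.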

Additional observations from a re-analysis of the deposited data

Results flagged for a closer look

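The response to shear stress differed between orpk and WT cells, by the test of the difference itself (edgeR quasi-likelihood test, adjusted over all genes tested), in 15 cases among the 9 genes. Of all tested genes, 52.6% passed this test at 2 dyn/cm2 against static, 57.5% at 30 dyn/cm2 against static and 46.5% at 30 against 2 dyn/cm2. Nothing particular to these genes is read from their count. Values are log2 differences, orpk minus WT, with SE.

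For 2 dyn/cm2 against static the differences were -0.59 ± 0.06 for Cpt1a, -0.74 ± 0.06 for Plin2, -0.30 ± 0.07 for Acadvl, -1.38 ± 0.53 for Ppara and 0.24 ± 0.07 for Rxra. Angptl4 was not tested in the differences of responses against static, which had chosen it. For 30 dyn/cm2 against static they were -0.60 ± 0.06 for Cpt1a, -1.24 ± 0.06 for Plin2, -0.75 ± 0.07 for Acadvl, -1.40 ± 0.60 for Ppara, -0.21 ± 0.07 for Ppard and 0.58 ± 0.07 for Rxra. For 30 against 2 dyn/cm2 they were -1.23 ± 0.10 for Angptl4, -0.50 ± 0.05 for Plin2, -0.45 ± 0.07 for Acadvl and 0.35 ± 0.07 for Rxra. The Ppara differences rest on 14 to 29 reads in a WT group. At 2 dyn/cm2 the Ppara call was lost without WT static replicate 1 or 2 or WT replicate 3 at 2 dyn/cm2 (adjusted p = 0.0922, 0.0787 and 0.0679), and at 30 dyn/cm2 8 of the 18 libraries were each needed for it (-1.39 to -1.17 without them).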

How the results depend on the processing

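Of 2439 tested log2 fold changes of the 9 genes under the alternatives, 2397 kept their side of the threshold, 23 were no longer past it, 15 became so and 4 that were past it changed sign. A further 24 that were past the threshold in neither fit, counted among the 2397, also changed sign, most of them when 1 library was left out. The 576 counts of calls among the 9 genes and among the 110 tested pathway genes together were all within 1.5 times their value. Of 2880 counts within single lists, 15 moved by more, 12 of them when 1 library was left out. The 4 changes of sign of values past the threshold came with library totals as the scaling, in orpk against WT: Rxra in static culture became -0.088, Acadvl at 2 dyn/cm2 -0.0097, Ppard at 2 dyn/cm2 -0.040 and Ppard at 30 dyn/cm2 -0.19. That scaling also moved the median gene by 0.11 in WT cells at 2 dyn/cm2 against static and by -0.12 in orpk cells at 30 against 2 dyn/cm2. Under it Pdk4 passed in orpk cells at 30 against 2 dyn/cm2 (-0.26, adjusted p = 0.00198). Without WT replicate 1 at 2 dyn/cm2, Rxra passed in WT cells at 30 against 2 dyn/cm2 (-0.13, adjusted p = 0.0286).

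Same-numbered libraries of different groups deviated from their group means with correlations of -0.05 to 0.06, none of 45 over 0.1, and 7 of 18 libraries correlated best with their own number, so the numbers were not taken as pairs. With the replicate block the counts of calls, over the 8 genes other than Angptl4 in comparisons of flow with static culture and over all 9 in the others, were the same in every comparison (6 of the 8 in orpk cells at 2 dyn/cm2 against static), and no call of these genes changed. With 1 library left out, that count was 5 to 6. By Spearman's rho Sprtn was again the gene most like Angptl4, but Bclaf3, Kbtbd8 and Mlf1 stood in places 9, 7 and 42. With genotype means subtracted, Sprtn, Bclaf3, Kbtbd8 and Mlf1 stood in places 2, 5, 6 and 12. The genes named as most like Angptl4 thus depend on the measure. The 12 reads of Angptl4 in static orpk cells and the few reads of Pdk4, Pparg and Ppara in WT cells limit what depth can show.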
